A study of Mus musculus with 6 samples.

Results

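The expression of 9 transcription factor genes that T cells switch on when their antigen receptor (TCR) is engaged was compared between antigen-activated CD4+ T cells with and without the histone deacetylase HDAC1. The genes were the NR4A orphan nuclear receptors Nr4a1, Nr4a2 and Nr4a3, the EGR zinc finger factors Egr1, Egr2 and Egr3, the interferon regulatory factors Irf4 and Irf8, and Myc. They were selected by name from the 55536 genes of the count table, by a rule that uses no measured value but with earlier results of these data known, and all 9 had enough counts to be tested. In short, 0 of the 9 passed the test between genotypes, where 1.97% of all genes tested did. The 3 EGR genes had the lowest fold changes of the set. Each HDAC1-cKO library had less Egr2 than each WT library, as was so for 11.8% of all genes tested. The 95% intervals of Nr4a1, Irf4, Irf8 and Myc left out a 2-fold difference in either direction.

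All donor cells carried the 2D2 transgene, a TCR that recognises myelin oligodendrocyte glycoprotein (MOG), on the C57BL/6 strain, and both groups carried 2 floxed Hdac1 alleles. The HDAC1-cKO group (genotype 2D2-Hdac1fl/fl-Cd4-Cre+) also carried Cre recombinase driven by the Cd4 promoter, and the WT group (2D2-Hdac1fl/fl-Cd4-Cre-) did not. Since the Cd4 promoter is active from the thymic stage on, Hdac1 was deleted before the cells met antigen. Naive CD45.2+ donor cells were injected into CD45.1+ recipients, whose own T cells remained, and MOG35-55 peptide in complete Freund's adjuvant (1 mg/ml) was given in the footpad 18 hours later. From the popliteal lymph nodes taken 4 days after that, 500 donor-derived 2D2+ CD4+ T cells were sorted for each library. Cells of 2 mice were pooled for each replicate, with 3 replicates per genotype, and the age of the animals is not given in the sources used here. Values of the 3 libraries of a genotype are given below in the order of replicates 1, 2 and 3.

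Engagement of the TCR raises calcium, which activates calcineurin and NFAT, and activates RAS and ERK, which act on SRF and ELK factors. Both branches induce NR4A and EGR genes within the first hour, and their transcripts decay quickly once the signal ends, so that they are widely used as reporters of recent TCR signalling. IRF4 rises in proportion to TCR strength and sustains the clonal expansion and metabolism of effector T cells. MYC drives growth, ribosome synthesis and nutrient uptake before the first divisions. The cells studied here were taken days after immunisation, and not at the first induction that follows it. When the transcripts measured here were induced was not tested.

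The libraries held between 19956153 and 55900237 counts, and the 3 WT libraries were deeper than the 3 HDAC1-cKO libraries. Hdac1 itself stood at 17.2, 14.7 and 15.4 CPM (the count scaled to a common library total) in HDAC1-cKO and at 234.5, 235.6 and 243.7 CPM in WT, so that the labels and the targeted gene matched. HDAC1-cKO replicate 2 stood apart: the deviations of its genes from their 6-library means rose with the GC content of the gene, at r = 0.585 across 8330 genes, while r lay between -0.28 and -0.074 in the other 5 libraries. Markers of T cells summed to 26858 to 36400 CPM in HDAC1-cKO and 31765 to 37778 CPM in WT. Of these 15 markers 2 passed the test, Cd2 and Cd3e, where 1.97% of all genes tested did. Cd3e, a chain of the TCR complex, stood at 41.7, 51.0 and 38.2 CPM in HDAC1-cKO and 105.4, 110.3 and 135.6 CPM in WT. All 12 B cell markers had counts, and they summed to 161.5 to 326.4 CPM in HDAC1-cKO and 79.4 to 185.8 CPM in WT. The 15 markers of myeloid and dendritic cells summed to at most 230.6 CPM in any HDAC1-cKO library and 167.8 to 225.5 CPM in the WT libraries, with Csf1r, Flt3, Clec9a and Cd14 at 0 in all 6 libraries. The 8 markers of CD8 T and NK cells summed to 208.6 to 489.1 CPM in HDAC1-cKO and 109.6 to 854.5 CPM in WT, with Ncr1 at 0 throughout. Heat shock genes, which respond to handling (8 genes), summed to 3099 to 4138 and 2963 to 4341 CPM. Regulatory T cell markers (4 genes) summed to 169.3 to 361.2 CPM in HDAC1-cKO and 394.4 to 435.8 CPM in WT. The part of these cells and of handling in the results below was not tested. In such bulk libraries, fewer cells that express a gene and less RNA per cell cannot be told apart.

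Of the promoters of these genes, those of Nr4a1, Nr4a2 and Egr2 are shown as examples of windows with several motifs for factors that act early in activated cells. RefSeq windows (GRCm38.p6) were at hand for 6 of the 9 genes, and the 250 bases before each transcript start were searched on both strands for the core of the cyclic AMP response element, TGACG, which reads CGTCA on the other strand, and for the CArG box bound by SRF. No motif of one kind overlaps one of the other kind. Capitals mark the matches, and each window is printed 5′ to 3′ on the strand of the gene.
Nr4a1, chr15:101266596-101266845, plus strand: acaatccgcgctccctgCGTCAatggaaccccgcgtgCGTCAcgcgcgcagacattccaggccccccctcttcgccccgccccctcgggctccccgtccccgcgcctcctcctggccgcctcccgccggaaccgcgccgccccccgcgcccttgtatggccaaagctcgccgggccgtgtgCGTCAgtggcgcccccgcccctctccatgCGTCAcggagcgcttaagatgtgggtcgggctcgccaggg
Nr4a2, chr2:57124004-57124253, minus strand: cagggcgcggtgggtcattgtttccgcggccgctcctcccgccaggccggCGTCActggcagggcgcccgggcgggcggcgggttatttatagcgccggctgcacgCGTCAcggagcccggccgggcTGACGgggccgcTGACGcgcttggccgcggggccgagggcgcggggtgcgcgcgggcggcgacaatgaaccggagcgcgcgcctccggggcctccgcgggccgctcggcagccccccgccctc
Egr2, chr10:67537619-67537868, plus strand: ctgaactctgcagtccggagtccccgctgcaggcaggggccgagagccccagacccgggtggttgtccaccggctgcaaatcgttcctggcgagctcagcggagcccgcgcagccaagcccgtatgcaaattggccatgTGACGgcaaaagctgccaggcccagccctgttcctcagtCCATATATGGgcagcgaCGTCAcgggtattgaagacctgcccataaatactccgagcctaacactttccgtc
The Nr4a1 and Nr4a2 windows hold 4 CRE cores each, and a window of Nr4a3 on chromosome 4 (48045055 to 48045304) also holds 4. Among 32851 mouse promoter windows of the same length, 17.8% hold at least 1 core and 2.74% at least 2. Only 16 windows, or 0.0487%, hold 4 or more, each of a different gene, and 3 of these 16 genes are the NR4A genes. The cut of 4 is the count in the NR4A windows themselves. The windows were not matched for GC content, which is 74.4% for Nr4a1, 80.0% for Nr4a2 and 63.6% for Nr4a3. In the Nr4a3 window 152 of the 250 bases lie in annotated exons. The Egr2 window shown holds 2 cores with a CArG box between them, a box found in 1.47% of all windows. It is 1 of 5 windows of Egr2, of which that from 67535249 holds neither motif and that from 67537316 a CArG box alone. Neither motif was found in the windows of Irf4 and Irf8. These are matches of letters, which say nothing of binding in these cells.

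The levels of the 9 genes differed widely from one another. On the length-corrected FPKM scale, the WT means ran from Myc at 42.8 through Nr4a1 at 14.6, Egr1 at 12.3, Irf8 at 10.3, Egr2 at 5.89 and Irf4 at 4.92 down to Egr3 at 0.709, Nr4a2 at 0.183 and Nr4a3 at 0.125. In that order the ranges of the 3 WT libraries overlapped between Nr4a1 and Egr1, Egr1 and Irf8, Egr2 and Irf4, and Nr4a2 and Nr4a3, so that these neighbours did not differ beyond their spread. In HDAC1-cKO the order of mean FPKM was Myc at 55.1, Nr4a1 at 15.8, Irf8 at 9.12, Egr1 at 8.07, Irf4 at 5.98, Egr2 at 3.02, Egr3 at 0.357, Nr4a2 at 0.251 and Nr4a3 at 0.159. There the ranges overlapped between Irf8 and Egr1, Egr1 and Irf4, Egr3 and Nr4a2, and Nr4a2 and Nr4a3. Thus Egr1 and Egr2 stood 1 place lower in the HDAC1-cKO order than in the WT order, and Irf8 and Irf4 1 place higher. The shift of rank was not tested.

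**Figure D1:**
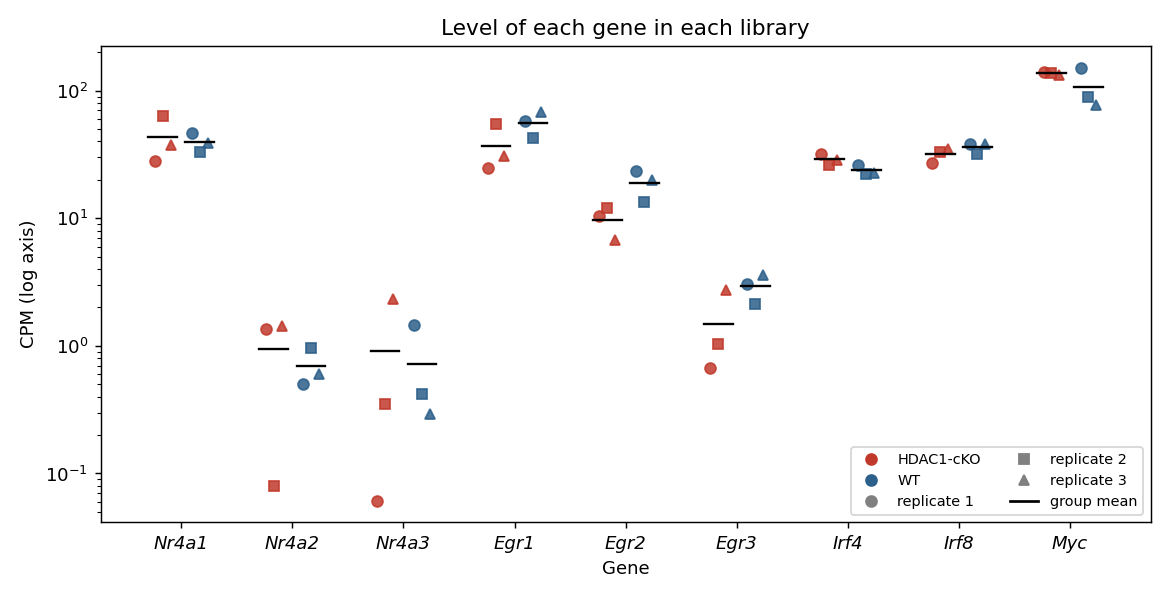
Level of each of the 9 genes in each library, in scaled counts (CPM) on a log axis; colours give the genotype, symbols the replicate number and bars the group mean. Egr2 is the gene whose 3 HDAC1-cKO points (6.71 to 12.1 CPM) all lie below its 3 WT points (13.5 to 23.4 CPM), as in 11.8% of all genes tested.

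Nr4a1, also known as NUR77, is the NR4A receptor most used as a reporter of TCR signalling. The gene lies on chromosome 15 (101254269 to 101274795, plus strand, GRCm38). It stood at 28.2, 62.9 and 37.8 CPM in HDAC1-cKO and 46.9, 32.8 and 38.6 CPM in WT. The HDAC1-cKO libraries held both the lowest and the highest value, and the WT values lay between them. The log2 fold change of HDAC1-cKO over WT was 0.13 ± 0.29 (SE; edgeR adjusted p = 0.880), and its 95% interval ran from -0.53 to 0.78, or 0.691-fold to 1.72-fold. Without HDAC1-cKO replicate 2 the log2 fold change was -0.27, and with offsets for the GC trend of each library it was -0.03. No direction can therefore be given for Nr4a1, whose longest transcript has a GC content of 56.95%.

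Nr4a2 and Nr4a3, which share the DNA-binding domain of Nr4a1 and act redundantly with it in T cells, were close to the lower limit of these libraries. Nr4a2 (chromosome 2, 57106830 to 57124003, minus strand) had 44, 3 and 29 counts in HDAC1-cKO and 26, 53 and 23 in WT, that is 1.35, 0.0803 and 1.42 CPM against 0.507, 0.963 and 0.606 CPM. Nr4a3 (chromosome 4, 48045153 to 48086447, plus strand) had 2, 13 and 48 counts in HDAC1-cKO and 75, 23 and 11 in WT, that is 0.0613, 0.348 and 2.35 CPM against 1.46, 0.418 and 0.290 CPM. For both genes the single libraries of a genotype differed far more than the group means, and the genotypes overlapped. The log2 fold changes were 0.44 ± 0.87 for Nr4a2 (edgeR adjusted p = 0.860) and 0.30 ± 1.14 for Nr4a3 (edgeR adjusted p = 0.933). With a 95% interval from -2.33 to 2.92, the Nr4a3 difference was not measurable with these libraries, and leaving out HDAC1-cKO replicate 3 turned it to -1.80. That of Nr4a2 ranged from 0.04 without HDAC1-cKO replicate 3 to 0.99 without HDAC1-cKO replicate 2. Nr4a1 made up 94.7 to 99.7% of the summed NR4A FPKM in all 6 libraries.

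Egr1, the EGR factor induced fastest through ERK and SRF, stood at 24.8, 54.7 and 30.7 CPM in HDAC1-cKO and 57.6, 42.2 and 67.5 CPM in WT. HDAC1-cKO replicates 1 and 3 lay below all WT libraries, and HDAC1-cKO replicate 2 lay between WT replicates 2 and 1. The mean was 36.7 ± 15.8 CPM against 55.8 ± 12.8 CPM (SD, n = 3 each), and the log2 fold change was -0.60 ± 0.30 (95% interval -1.30 to 0.10, edgeR adjusted p = 0.374). Leaving out HDAC1-cKO replicate 2 gave -1.02 (edgeR adjusted p = 0.0539), and leaving out HDAC1-cKO replicate 1 gave -0.39 (edgeR adjusted p = 0.597). Egr1 has the highest GC content of the 9 genes, 57.31%. After the GC trend of each library was removed its levels were 26.1, 46.1 and 30.5 CPM against 62.4, 43.9 and 68 CPM, which overlapped still. The gene lies on chromosome 18 (34859823 to 34864984, plus strand).

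Egr2, which with Egr3 induces negative regulators of TCR signalling and T cell anergy, was at a lower level in every HDAC1-cKO library than in any WT library. It stood at 10.4, 12.1 and 6.71 CPM in HDAC1-cKO and 23.4, 13.5 and 20.1 CPM in WT, and the nearest values of the genotypes were 12.1 and 13.5 CPM. Among all genes tested, 11.8% were lower without overlap in the same way. The mean of Egr2 was 9.75 ± 2.77 CPM against 19.0 ± 5.07 CPM (SD, n = 3 each). The log2 fold change was -0.95 ± 0.28 (95% interval -1.61 to -0.30, that is 0.328-fold to 0.811-fold), with an unadjusted p of 0.00969 and an adjusted p of 0.133 in edgeR. Egr2 thus missed the threshold of 0.05 once all genes were accounted for. DESeq2 gave an adjusted p of 0.0179 and limma-voom with sample weights 0.037, both past the threshold. These tools called 9.52% and 9.98% of all genes, where edgeR called 1.97%. In every one of the 21 alternative settings the log2 fold change was negative, from -1.16 to -0.75. The gene lies on chromosome 10 (67535475 to 67542188, plus strand).

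Egr3, the least abundant EGR gene, had 22, 39 and 56 counts in HDAC1-cKO and 158, 117 and 137 in the deeper WT libraries. This corresponded to 0.675, 1.04 and 2.74 CPM against 3.08, 2.13 and 3.61 CPM. HDAC1-cKO replicates 1 and 2 were below all WT libraries, and HDAC1-cKO replicate 3 was above WT replicate 2. The log2 fold change was -1.01 ± 0.53 (95% interval -2.22 to 0.21, edgeR adjusted p = 0.393), and it ranged from -1.77 without HDAC1-cKO replicate 3 to -0.66 without HDAC1-cKO replicate 1. On the log2(FPKM + 1) scale, which understates changes of low genes, it was -0.34. Summed over Egr1, Egr2 and Egr3, the EGR level was 8.84, 16.0 and 9.51 FPKM in HDAC1-cKO and 20.6, 14.0 and 22.1 FPKM in WT, which overlapped through HDAC1-cKO replicate 2 and WT replicate 2. The gene lies on chromosome 14 (70077203 to 70082614, plus strand).

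Irf4, which cooperates with BATF and JUN proteins at composite DNA elements in effector T cells, was measured with a narrow spread. It stood at 32.1, 26.0 and 28.6 CPM in HDAC1-cKO and 26.3, 22.3 and 22.6 CPM in WT. HDAC1-cKO replicates 1 and 3 were above all WT libraries, and HDAC1-cKO replicate 2 lay just below WT replicate 1. The log2 fold change was 0.28 ± 0.15 (95% interval -0.06 to 0.63, or 0.959-fold to 1.55-fold, edgeR adjusted p = 0.394). Irf8, a relative of Irf4 better known from B cells and dendritic cells, stood at 27.1, 33.1 and 35.1 CPM in HDAC1-cKO and 37.9, 31.7 and 38.0 CPM in WT. Its genotypes overlapped, with a log2 fold change of -0.17 ± 0.15 (95% interval -0.53 to 0.18, edgeR adjusted p = 0.637). The B cell marker sums given above were highest in HDAC1-cKO replicate 2, in which Irf8 was the second of the 3 HDAC1-cKO values. Xcr1, a dendritic cell marker chosen after its values were seen, stood at 4.78, 1.55 and 4.46 CPM in HDAC1-cKO and 11.3, 10.8 and 9.64 CPM in WT. Other markers of that list overlapped: Itgax stood at 1.29, 0.0 and 0.343 CPM against 1.78, 0.2 and 0.553 CPM in WT. Lyz2 stood at 0.981, 3.75 and 2.7 CPM against 2.03, 22.6 and 10.4 CPM. The sums of the myeloid and dendritic markers overlapped between genotypes, and 0 of the 8 tested passed. The part of either cell type in the Irf8 level was not tested. Irf4 lies on chromosome 13 (30749226 to 30766976) and Irf8 on chromosome 8 (120736358 to 120756694), both on the plus strand.

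Myc was the most abundant of the 9 genes in both genotypes, at 139.8, 136.9 and 133.9 CPM in HDAC1-cKO and 151.7, 89.0 and 77.2 CPM in WT. The HDAC1-cKO libraries were nearly equal, while WT replicate 1 lay above all of them and WT replicates 2 and 3 well below. The mean was 136.9 ± 2.96 CPM against 105.9 ± 40.0 CPM (SD, n = 3 each). The log2 fold change was 0.37 ± 0.23 (95% interval -0.17 to 0.91, edgeR adjusted p = 0.491). Without WT replicate 1 it was 0.71 (edgeR adjusted p = 0.0626), and without WT replicate 3 it was 0.18 (edgeR adjusted p = 0.828). The gene lies on chromosome 15 (61985391 to 61990374, plus strand).

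**Figure D2:**
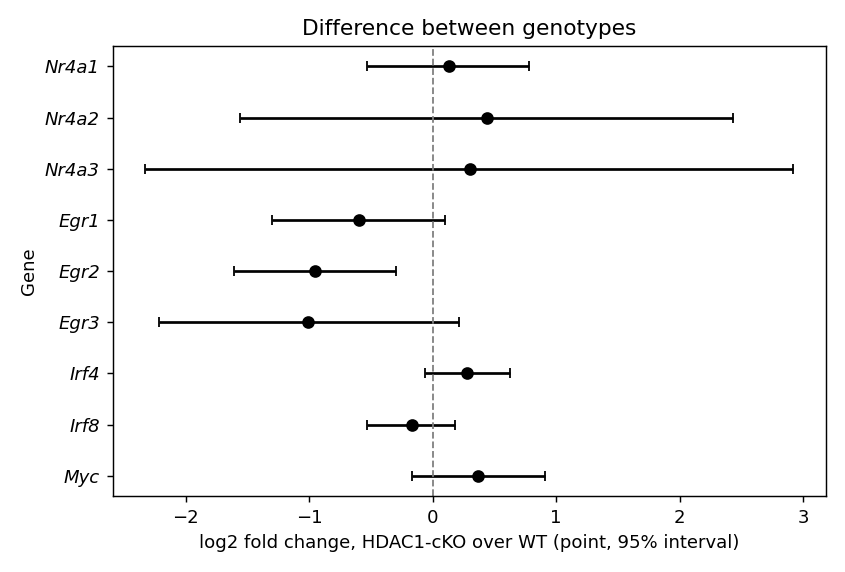
Log2 fold change of HDAC1-cKO over WT for each of the 9 genes (points) with its 95% interval (bars) from edgeR. The Egr2 interval (-1.61 to -0.30) leaves out 0, and the intervals of the other 8 genes include it, that of Nr4a3 running from -2.33 to 2.92.

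Counted together, 0 of the 9 genes passed the adjusted threshold in edgeR, against 1.97% of the 15519 genes tested. At an unadjusted p under 0.05 it was 1 of 9, Egr2, against 17.0% of all genes. DESeq2 called 1 of 9 (Egr2), against 9.52% of all genes. Limma-voom with sample weights called 2 of 9 (Egr1 and Egr2, with an adjusted p of 0.0416 for Egr1), against 9.98% of all genes. The genotypes did not overlap in 1 of 9 genes, against 24.6% of all genes, which gives no ground to set these 9 genes apart from the rest of the transcriptome. With 4 of 9 log2 fold changes negative, where 50.3% of all genes were negative, the signs were also mixed. They were divided by family, with 3 of 3 EGR genes negative and 3 of 3 NR4A genes positive, although the sign of Nr4a1 and Nr4a3 depended on single libraries.

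The spread within a genotype set the precision of each comparison. The pooled SD of log2 CPM within genotypes was 0.143 for Irf4 and 0.173 for Irf8, below the median of 0.2 over 8333 genes of at least 10 CPM. It was 0.364 for Myc, 0.428 for Egr2, 0.452 for Nr4a1 and 0.484 for Egr1, and these 4 genes were more variable than 87.1%, 92.7%, 94.2% and 95.6% of those genes. Egr3 reached 0.778, Nr4a2 1.65 and Nr4a3 1.98, each on few counts. On the log2 scale, the 95% intervals of Nr4a1, Irf4, Irf8 and Myc thus stay within a 2-fold difference in either direction, while those of the 3 EGR genes, Nr4a2 and Nr4a3 reach beyond it. Each interval is for a single gene and is not adjusted for their number.

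**Figure D3:**
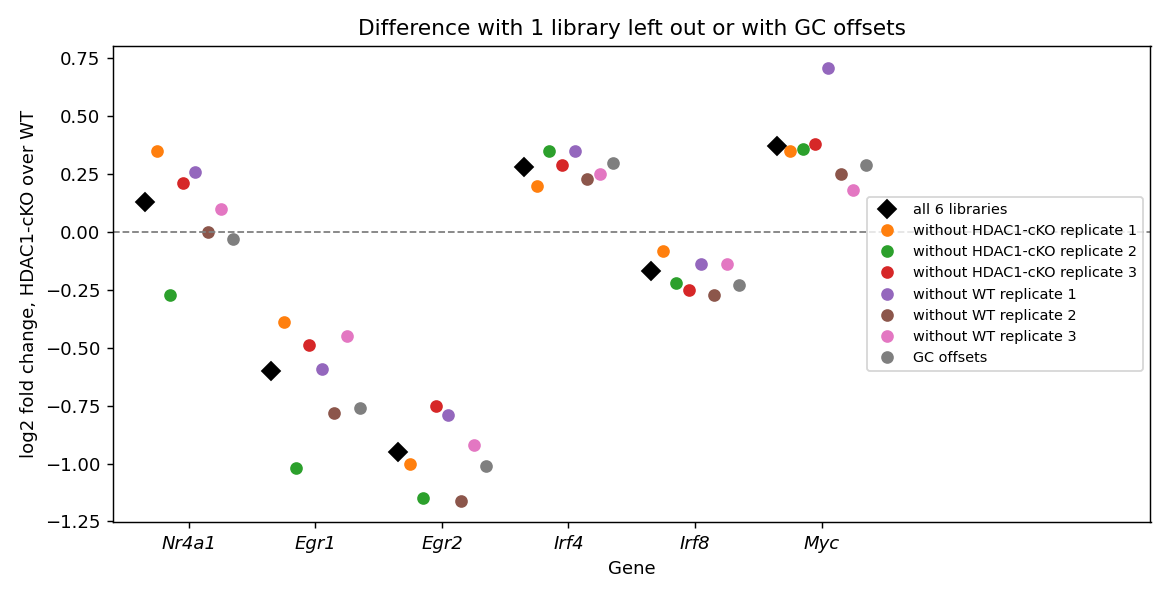
Log2 fold change of HDAC1-cKO over WT for the 6 genes of at least 10 mean CPM, with all 6 libraries (diamonds), without each library in turn and with offsets for GC content (circles). Egr1 moves between -1.02 and -0.39, Nr4a1 between -0.27 and 0.35, and Egr2 stays between -1.16 and -0.75.

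The pathway that induces these genes was examined through 19 genes of the calcineurin, NFAT, RAS and ERK branches, all of which were tested. Of these, 0 passed in edgeR in either direction, 2 were lower and 0 higher at an unadjusted p under 0.05 (8.39% and 8.62% of all genes), a share near the background, and the median log2 fold change was -0.15, where that of all genes was -0.0. Ppp3cc, a catalytic subunit of calcineurin, stood at 16.1, 9.31 and 13.4 CPM against 17.0, 28.7 and 26.6 CPM in WT, a log2 fold change of -0.90 ± 0.27 (edgeR adjusted p = 0.135). Rasgrp1, the exchange factor that links the TCR to RAS, stood at 22.4, 38.4 and 31.1 CPM against 42.0, 54.9 and 50.9 CPM, a log2 fold change of -0.69 ± 0.21 (edgeR adjusted p = 0.146). The genotypes did not overlap for either gene, but both were named for the lowest p of the list. Of the 19 genes, 3 were lower and 0 higher without overlap, against 11.8% and 12.7% of all genes. DESeq2 and limma-voom each called Ppp3cc and Rasgrp1 lower, as they did 4.65% and 5.17% of all genes. Transcript levels do not report the activity of these enzymes.

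Among other genes that TCR signals induce rapidly, 26 of 28 had enough counts (Fosb and Atf3 did not). Here 1 of 26 fell and 0 rose in edgeR, where 0.992% of all genes fell. The gene that fell was Bhlhe40, a transcription factor that promotes cytokine production by encephalitogenic T cells, with 246.4, 201.4 and 296.3 CPM in HDAC1-cKO and 485.6, 424.2 and 468.8 CPM in WT. Its log2 fold change was -0.89 ± 0.15 (edgeR adjusted p = 0.0323). The edgeR adjusted p was 0.0216 without HDAC1-cKO replicate 2, and between 0.0784 and 0.130 without any 1 of the other 5 libraries. Without any 1 of these 5, the genes called over the whole transcriptome also fell, from 306 to between 26 and 49. The Bhlhe40 log2 fold change itself stayed between -1.04 and -0.77 without any 1 library. Tnfrsf9, the costimulatory receptor 4-1BB, stood at 46.0, 83.4 and 80.1 CPM against 242.9, 159.2 and 131.8 CPM, a log2 fold change of -1.35 ± 0.29 that missed the threshold (edgeR adjusted p = 0.0595).

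Of the 26 genes, 22 had a negative log2 fold change, against 50.3% of all genes. The median was -0.35 (-0.55 to -0.28 without any 1 library). At an unadjusted p under 0.05, 9 were lower and 0 higher, against 8.39% and 8.62% of all genes. With GC offsets 5 of 26 were lower past the adjusted threshold (Bhlhe40, Tnfrsf9, Tnfrsf4, Junb and Ier2, against 3.31% of all genes called, 1.55% higher and 1.76% lower). Without HDAC1-cKO replicate 2 it was also 5 (Bhlhe40, Tnfrsf4, Btg2, Junb and Zfp36, against 3.88%, 1.6% higher and 2.28% lower). Junb, an AP-1 subunit chosen after its values were seen, stood at 178.7, 296.2 and 193.1 CPM against 330.1, 276.3 and 329.2 CPM, with a log2 fold change of -0.49 ± 0.19 (edgeR adjusted p = 0.254). Its pattern over the 6 libraries, with HDAC1-cKO replicate 2 as the highest of its genotype and WT replicate 2 as the lowest, is that of Egr1. Cd69, an early activation marker likewise chosen after its values were seen, stood at 64.4, 90.9 and 61.3 CPM against 115.7, 78.1 and 107.9 CPM (log2 fold change -0.48 ± 0.20, edgeR adjusted p = 0.284). With GC offsets the Cd69 log2 fold change was -0.06.

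Targets of EGR and NR4A factors, among them corepressors, anergy genes and inhibitory receptors, were tested for 22 of 23 genes (Spry2 had too few counts). In edgeR 0 of 22 passed, 1 was higher and 3 were lower at an unadjusted p under 0.05 (8.62% and 8.39% of all genes), together a share near the background, and the median log2 fold change was -0.12. The EGR corepressor Nab1 stood at 24.4, 25.7 and 34.8 CPM against 44.0, 49.6 and 36.3 CPM, with a log2 fold change of -0.62 ± 0.19 (edgeR adjusted p = 0.141), and DESeq2 called it lower. Dgka, the diacylglycerol kinase that dampens RAS activation and is a known EGR2 target in anergic T cells, stood at 233.7, 299.4 and 190.2 CPM against 294.5, 356.5 and 363.4 CPM, with a log2 fold change of -0.49 ± 0.17 (edgeR adjusted p = 0.200). Without HDAC1-cKO replicate 2 the Dgka value was -0.68 (edgeR adjusted p = 0.0404). Of 3 more genes chosen after their values were seen, the inhibitory receptor Cd5, whose level on T cells follows TCR strength, had a log2 fold change of -0.31 (edgeR adjusted p = 0.299). Limma-voom, the fit with GC offsets and that without HDAC1-cKO replicate 2 called Cd5 lower, as they did 5.17%, 1.76% and 2.28% of all genes. The other EGR corepressor, Nab2, was at 0.10 (edgeR adjusted p = 0.931), and Pdcd1, which encodes PD-1, at 0.08 (edgeR adjusted p = 0.947).

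The other IRF genes and the partners and targets of IRF4 were tested for 26 of 26 genes, of which 0 passed in edgeR. At an unadjusted p under 0.05, 2 were higher and 7 lower, against 8.62% and 8.39% of all genes. The median log2 fold change was -0.29, and 19 of 26 were negative, against 50.3% of all genes. The lowest p belonged to Ahr, the aryl hydrocarbon receptor, at 9.57, 5.73 and 6.42 CPM against 17.1, 16.2 and 13.1 CPM, a log2 fold change of -1.09 ± 0.24 (edgeR adjusted p = 0.0642). Ikzf3, the Ikaros family member Aiolos, lay in the opposite direction at 55.8, 50.8 and 46.1 CPM against 21.6, 34.4 and 32.2 CPM, a log2 fold change of 0.79 ± 0.19 (edgeR adjusted p = 0.0819). Prdm1, the IRF4 target that encodes BLIMP1, was chosen after its values were seen, and stood at 22.0, 10.6 and 25.1 CPM against 34.2, 32.6 and 33.1 CPM (log2 fold change -0.80 ± 0.29, edgeR adjusted p = 0.206). Gata3, chosen likewise, stood at 110.5, 158.6 and 112.4 CPM against 207.8, 187.5 and 192.3 CPM, with a log2 fold change of -0.62 ± 0.16 (edgeR adjusted p = 0.0869). Leaving out HDAC1-cKO replicate 2 gave -0.82 for Gata3 (edgeR adjusted p = 0.00901). For these 4 genes, picked by a low p or after their values were seen, the genotypes did not overlap. Of the 26 genes of the list, 7 were lower and 2 higher without overlap, against 11.8% and 12.7% of all genes. DESeq2 called 2 of the list higher and 4 lower, against 4.88% and 4.65% of all genes.

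The MAX network and known MYC targets were tested for 44 of 46 genes (Mycn and Mycl had too few counts), and 0 passed in edgeR. Here the signs leaned the other way: 32 of 44 were positive, the median log2 fold change was 0.24, and 9 were higher and 1 lower at an unadjusted p under 0.05, against 8.62% and 8.39% of all genes. Among 18 genes of ribosome synthesis 15 were positive, as were 12 of 18 metabolic and growth targets and 5 of 8 genes of the MAX network. Of all genes tested, 50.3% were negative. Rrp9, a component of the U3 complex that processes ribosomal RNA, stood at 96.9, 122.4 and 111.2 CPM against 79.8, 64.2 and 68.1 CPM, with a log2 fold change of 0.64 ± 0.14 (edgeR adjusted p = 0.0605). Nop16, a nucleolar protein of ribosome assembly, stood at 129.0, 127.8 and 129.6 CPM against 102.0, 74.9 and 80.2 CPM, with a log2 fold change of 0.59 ± 0.14 (edgeR adjusted p = 0.0721).

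Srm, which encodes spermidine synthase and was chosen after its values were seen, had 190.5, 222.8 and 219.1 CPM against 161.7, 77.4 and 86.5 CPM, so that WT replicate 1 was the highest WT library for it as for Myc. Its log2 fold change was 0.96 ± 0.26 (edgeR adjusted p = 0.111), and 1.35 without WT replicate 1 (edgeR adjusted p = 0.0287). The same library was the highest of the WT group for Rrp9 and Nop16. Mxd1, which competes with MYC for MAX, was chosen in the same way and lay at 14.3, 19.2 and 20.1 CPM against 34.7, 32.1 and 24.8 CPM (log2 fold change -0.77 ± 0.20, edgeR adjusted p = 0.0877). Max, the obligate partner and also chosen after its values were seen, had a log2 fold change of 0.28 ± 0.15 (edgeR adjusted p = 0.422). DESeq2 called 6 of the list higher and 1 lower, against 4.88% and 4.65% of all genes. Limma-voom called 8 higher and 1 lower, against 4.81% and 5.17%. With GC offsets 0 were called, against 3.31% of all genes. Without HDAC1-cKO replicate 2 it was 0 higher and 1 lower (Ccnd2), against 1.6% and 2.28%. The median of the list stayed positive without any 1 library, between 0.15 and 0.37.

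**Figure D4:**
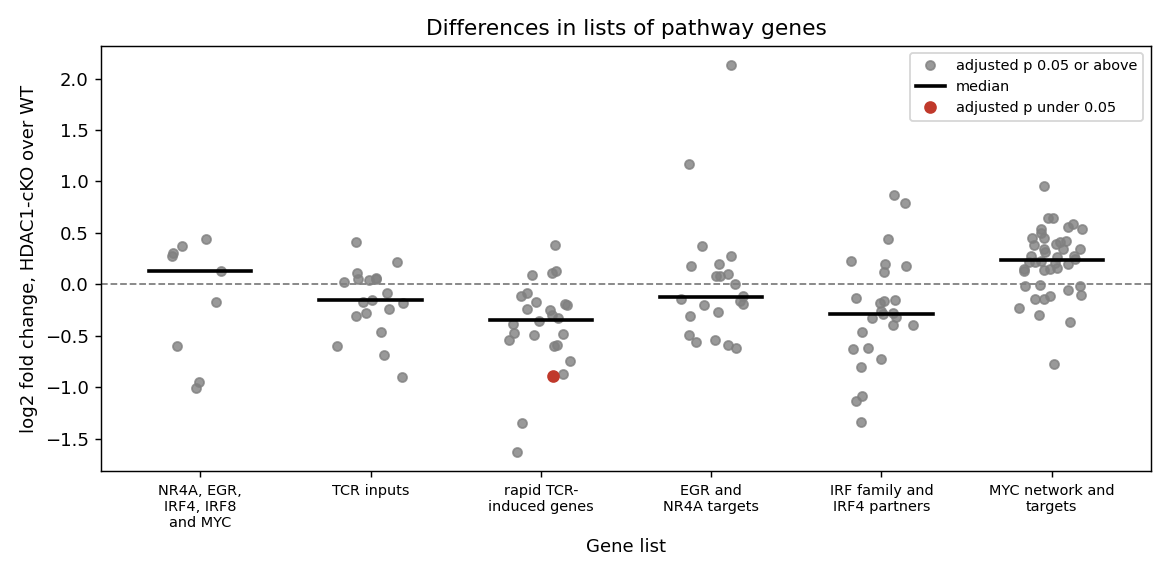
Log2 fold change of HDAC1-cKO over WT for each tested gene (points) of the 9 genes and of 5 lists of pathway genes, with the median of each list (bar); red marks an edgeR adjusted p under 0.05. Bhlhe40 in the list of rapidly induced genes is the red point, and the medians run from -0.35 for that list to 0.24 for the MYC list.

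The genes whose levels followed each member most closely over the 6 libraries were taken among 7436 genes of at least 10 mean CPM, as a description with Pearson's r over 6 libraries, a number at which high values of r are easily reached among so many genes; the libraries differed in depth and in their GC trend. For Egr1 they were Brat1 (r = 0.993), Ddx28 (0.984) and Camk4 (0.982), the last a calcium-dependent kinase of TCR signalling. For Egr2 they were Huwe1 (0.992), Mindy1 (0.987) and Hsdl1 (0.979), and for Nr4a1 Psmb4 (0.986), Raver1 (0.981) and Hmox2 (0.972). Irf4 was followed by Bhlhb9 (0.997), Pmpca (0.996) and Rbbp7 (0.994), of which Rbbp7 encodes a histone-binding subunit shared by HDAC1 complexes. Irf8 was followed by Zbtb21 (0.984), Mad2l1bp (0.983) and Otulin (0.975). Myc was followed by Mrps2 (0.985) and Mrpl19 (0.983), both of the mitochondrial ribosome, and by Tsr2 (0.980), a ribosome assembly factor.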

How the data were processed

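For 55536 genes in 6 libraries, the authors deposited raw read counts and a second table of FPKM values. Per the labels' protocols, cDNA was made by Smart-seq2 and libraries with Nextera XT, a kit without strand information, and sequenced as single reads of 50 bases. Per the submitters' processing notes, STAR 2.5.2b, Picard 2.19.2, R 3.6.1 and DESeq2 1.24.0 were used, and mouse and human builds are named. For the read counter and its settings, nothing is given in the sources used here. The deposited FPKM equal the count times 1 constant per gene and 1 size factor per library, as checked on 10896 genes. Coordinates of all 9 genes match GENCODE M21 (GRCm38), and 0 value columns were left without a sample. None of the 9 genes overlaps exons of another gene.

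Counts were filtered with filterByExpr, which kept 15519 genes and at least 99.922% of the counts of each library, scaled by TMM and tested with edgeR 4.0.16 (R 4.3.3; quasi-likelihood F test, robust, two-sided, genotype as the term, Benjamini-Hochberg adjusted p under 0.05 over all genes tested). CPM use TMM-scaled totals. Standard errors are the fold change divided by the root of F, and intervals cover 95%. Replicates are separate pools of mice per the series text, and reads carry no molecular identifiers, so counting precision is not known per molecule. On simulated counts for 15057 genes with 200 genes changed, edgeR recovered 55% of the 2-fold and 79% of the 4-fold changes, with 9.5% of calls false.

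The 9 genes and all lists were chosen with earlier results of these data known. Named were the 9 genes, Hdac1, in each list up to 6 called genes or otherwise the 2 with the lowest p, and the 3 genes most correlated with each of the 9 genes that had at least 10 mean CPM, leaving out predicted genes and receptor or antibody segments; genes outside that rule are marked as chosen after their values were seen. Where a list's genes are only counted by a tool they are named by that tool's call. Alternatives were other scaling (RLE, upper quartile, totals alone), no or a stricter filter (10 CPM in 3 libraries), edgeR without robust estimation, DESeq2 1.42.0, limma-voom with sample weights (limma 3.58.1), limma on log2(FPKM + 1) or log2(FPKM + 0.1), thinned counts, offsets for GC content, a replicate block and leaving out each library. Promoter sequences are RefSeq's. Figures were drawn with matplotlib 3.10.9.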

Additional observations from a re-analysis of the deposited data

How the results depend on the processing

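Each of the 9 genes was recomputed under 20 or 21 alternatives. The log2 fold changes of Egr1, Egr2, Egr3, Irf4, Irf8, Myc and Nr4a2 kept their sign in all of them. That of Nr4a1 turned to -0.10 with limma-voom, -0.03 with GC offsets and -0.06 with the replicate block and GC offsets, and ranged from -0.27 to 0.35 when 1 library was left out. That of Nr4a3 turned to -0.01 with limma on log2(FPKM + 0.1), -0.32 with the replicate block and -0.30 with the block and GC offsets, and ranged from -1.80 to 1.33 when 1 library was left out. Batf, an IRF4 partner chosen after its values were seen, was at 0.20 (edgeR adjusted p = 0.769), at -0.11 with limma-voom, and between -0.22 and 0.41 when 1 library was left out. The cause of these changes was not tested.

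The number of all genes called, 306, became 1363 with DESeq2, 1549 with limma-voom, 36 with limma on log2(FPKM + 1) without a filter, 513 with GC offsets, and 26 to 626 when 1 library was left out, the highest without HDAC1-cKO replicate 2. Of the 9 genes, 1 was called by DESeq2, 2 by limma-voom and 0 under every other alternative. Of the TCR signalling genes, 2 were called by DESeq2 and 2 by limma-voom. Of the rapidly induced genes, 3 of 28 were called without a filter, 3 of 22 at 10 CPM, 4 of 26 by DESeq2 and 8 of 26 by limma-voom. Limma on log2(FPKM + 1) or log2(FPKM + 0.1) called 2 of them, and the former 0 without a filter. Of the same genes, 2 were called with thinned counts, 5 with GC offsets, and 0 to 5 when 1 library was left out. Of the EGR and NR4A targets, 1 was called by DESeq2, 2 by limma-voom, 1 with GC offsets, and 0 to 2 when 1 library was left out. Of the IRF list, 1 was called without a filter, 2 of 20 tested at 10 CPM, 6 by DESeq2, 8 by limma-voom, 2 with GC offsets, and 0 to 1 when 1 library was left out. Of the MYC list, 3 of 41 tested were called at 10 CPM, 7 by DESeq2, 9 by limma-voom, 1 by limma on log2(FPKM + 1) or log2(FPKM + 0.1), 1 with thinned counts, and 0 to 1 when 1 library was left out.

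Replicate numbers are shared by the genotypes, but deviations of same-numbered libraries correlated at only 0.204, 0.016 and -0.128 across 8333 genes, so they were not taken as pairs. HDAC1-cKO replicate 2 correlated best with WT replicate 3 (0.196). With the replicate block 65 genes were called, 190 with the block and GC offsets, and 0 of the 9 genes and 0 of the rapidly induced genes with the block. Counts were few for Nr4a2, Nr4a3 and Egr3, with as few as 3, 2 and 22 in a library. These lowest counts were not in the library with the smallest total, HDAC1-cKO replicate 3.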

Other observations

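Ratios between members, taken from FPKM of the same library and chosen after the values were seen, are given as values without a test. In HDAC1-cKO the ratio of Egr1 to Nr4a1 was 0.525, 0.519 and 0.486, and in WT it was 0.734, 0.768 and 1.05, so that the genotypes did not overlap although each of these genes did overlap. Irf4 over Irf8 was 0.854, 0.564 and 0.588 in HDAC1-cKO and 0.50, 0.507 and 0.429 in WT, again without overlap. Egr2 over Egr1 was 0.590, 0.313 and 0.308 in HDAC1-cKO and 0.572, 0.450 and 0.419 in WT, with overlap.

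Further genes of the lists add values that the comparisons above do not hold. Irf9, a subunit of the interferon-activated factor ISGF3 that was chosen after its values were seen, stood at 96.5, 91.6 and 87.0 CPM in HDAC1-cKO and 114.5, 117.1 and 145.8 CPM in WT (log2 fold change -0.46 ± 0.13, edgeR adjusted p = 0.117). Tnfrsf4, the costimulatory receptor OX40 and chosen likewise, stood at 169.7, 250.4 and 186.5 CPM against 455.6, 358.7 and 291.5 CPM (log2 fold change -0.87 ± 0.20, edgeR adjusted p = 0.0718). Leaving out HDAC1-cKO replicate 2 gave -1.06 for Tnfrsf4 (edgeR adjusted p = 0.0313). Fos, the AP-1 gene that shares its SRF input with Egr1 and was also chosen after its values were seen, stood at 9.35, 10.5 and 5.98 CPM against 10.9, 8.27 and 11.7 CPM (log2 fold change -0.25 ± 0.26, edgeR adjusted p = 0.713), with overlap.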
